A study of Mus musculus with 36 samples.

Results

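The circular RNAs (circRNAs) of the mouse hippocampus were compared with those of the frontal cortex, to ask which circles differ between these brain regions whatever the time of day. The counts of both tissues were joined on the position of each circle, a circle listed for only 1 tissue was set to 0 in the other, and circRNAs found in at least 2 replicates of a time point in either tissue were kept. This left 6656 of the 33261 circRNAs listed, 5505 of them kept in the hippocampus, 4790 in the frontal cortex and 3639 in both. Each tissue was represented by 18 samples, 3 biological replicates at each of ZT1, ZT5 and ZT9 in the light phase and ZT13, ZT17 and ZT21 in the dark phase, where ZT counts the hours since lights on. All animals were untreated male C57BL/6 mice (substrain N by the study's methods), 9 to 10 weeks old, whose vessels were flushed with buffer before whole hippocampi and whole frontal lobes were removed. The labels do not say whether a hippocampus and a frontal cortex sample with the same number came from 1 animal. RNA came from whole tissue, so fewer cells of a type and less RNA per cell cannot be told apart.

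A circRNA forms when the splicing machinery joins the end of an exon back to the start of the same or an earlier exon. The closed product lacks the free ends that exonucleases attack, and it outlives most linear RNAs, so that neurons, which do not divide, accumulate circles. The hippocampus, with its densely packed granule and pyramidal cells, serves the formation of memories, whereas the layered frontal cortex serves planning and the control of movement. A read that crosses the back-splice junction marks a circle, and each circle has 1 such junction whatever its length, so that levels of different circles can be set side by side. Levels are given below as normalised circular reads per 10000 circular reads of the circRNAs tested, and differences as log2 fold changes with their standard errors, positive where the hippocampus was higher. Differences of a circle relative to the other circles of its host are instead on the natural-log scale and are not to be set beside log2 fold changes. Levels summed over a list of genes cover all circRNAs kept, tested or not, per 10000 circular reads of all circRNAs kept, and levels summed over a host gene are per 10000 circular reads of the host genes tested. Both sums are on a lower scale than the levels of single circles and are not to be set beside them. The linear transcripts of the host genes were not analysed here, so a difference in a circle is not separated from a difference in the expression of its gene.

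Total circular reads were 23955 ± 13288 (SD, n = 18) in the hippocampus and 20113 ± 6119 (SD, n = 18) in the frontal cortex, from 6754 to 73252 and from 8107 to 34803 per sample. These totals are not corrected for sequencing depth, and their difference was within the spread of the samples (two-sided permutation test, 100000 resamples, n = 18 per tissue, p = 0.314). A hippocampus sample held 3989 ± 1581 circRNAs and a frontal cortex sample 3494 ± 800 (SD, n = 18 each, permutation test, p = 0.271). Thinned to the 6754 reads of the smallest sample, the expected numbers of circRNAs with at least 2 reads were 1246 ± 80.9 and 1261 ± 73 (SD, n = 18 each). The difference of -15.1 circRNAs was again within the spread (permutation test, n = 18 per tissue, p = 0.566). Thinning did not remove the dependence on depth, with 1495 in the sample of 6754 reads and 1067 in that of 73252 reads. By their profiles, all 36 samples resembled the other samples of their own tissue more than those of the other tissue, by a difference in the correlation coefficient of 0.0539 to 0.151. On the second principal component of the circRNAs tested, which took up 15.7% of the variance, the hippocampus lay between 5.16 and 13.9 and the frontal cortex between -10.1 and -5.05. The first component, with 19.5%, did not separate the tissues. Hippocampus ZT13 replicate 1, with 6754 reads, and frontal cortex ZT9 replicate 3, with 8107 reads, stood apart from the rest, with normalisation factors of 1.3 and 1.34 against 0.902 to 1.05 in the other samples. Values without these libraries are given where they ended or brought a call of a named circle.

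Of the 6656 circRNAs, 710 had enough reads for the filter of edgeR and were tested, and they held 49.3% to 60.5% of the circular reads of a sample. In 1 fit of all 36 samples with the time point as a covariate, 110 circRNAs (15.5%) passed an adj. p-value of 0.05 with higher values in the hippocampus, and 105 (14.8%) with higher values in the frontal cortex, so that 215 (30.3%) differed in either direction. The smallest p-values in the hippocampus, in this order, were those of the GTPase-activating protein Arhgap12, the transcription factor Glis3, the predicted gene Gm49169, a second circle of Glis3, the transcription factor Nfix, the lipid kinase Pip5k1b and the transcription factor Elf2. In the frontal cortex they were those of the sialyltransferase St6gal2, of Arhgap10 and of the potassium channel Kcnh5. Most differences were moderate, with a median size of 0.77 among the circRNAs higher in the hippocampus and 0.72 among those higher in the frontal cortex, on the log2 scale, and 37 and 30 of them exceeded 1. For 9 of the 710 circRNAs (1.27%), the levels of the 18 hippocampus samples did not overlap with those of the 18 frontal cortex samples. The median log2 fold change over all 710 circRNAs was 0.01. Without any scaling for depth the median was 0.23, and 108 circRNAs were then higher in the hippocampus and 28 higher in the frontal cortex, so that 79.4% of the calls pointed to the hippocampus in place of 51.2%.

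**Figure D1:**
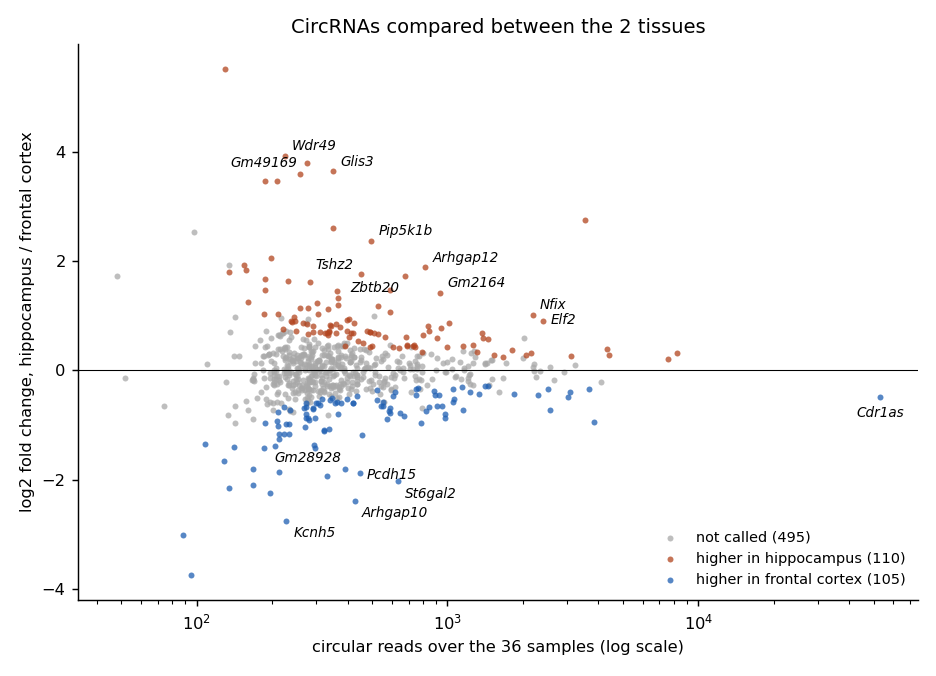
Each point is 1 of the 710 circRNAs tested, with its circular reads summed over the 36 samples on the x axis (log scale) and its log2 fold change of hippocampus over frontal cortex on the y axis. The 110 circRNAs higher in the hippocampus are red, the 105 higher in the frontal cortex are blue and the 495 not called are grey, and the labels name the circles with the smallest p-values in each direction, Zbtb20 and Cdr1as.

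Glis3, a zinc finger transcription factor of the Krüppel-like family, gave 2 circles that separated the tissues. Exon 3 of transcript Glis3-201 alone forms a circle of 1114 nt (chr19:28530873-28531986, minus strand), whose level ran from 5.64 to 22.1 across the hippocampus samples (median 14.7). Cortex samples ran from 0 to 4.12 (median 0), and the circle was found in 8 of these 18 against all 18 from the hippocampus. Every hippocampus sample lay above every frontal cortex sample, and most cortex samples held no read of it. In reads, this was 330 against 20, with a log2 fold change of 3.64 (SE 0.31, adj. p-value 2.45e-12). The second Glis3 circle joins the same exon, which is exon 4 of transcript Glis3-202, to the exon before it, exon 3 of that transcript (chr19:28530873-28540408). It ranged from 3.15 to 13.7 (median 10.5) in the hippocampus, and from 0 to 3.09 (median 0) in the frontal cortex. Here too the tissues did not overlap (log2 fold change 3.59, SE 0.35, adj. p-value 5.79e-11).

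Nfix, a nuclear factor I transcription factor that takes part in the development of the hippocampus, forms a circle of 532 nt from exon 2 (chr8:84771784-84772315). It was more abundant than those of Glis3, with levels of 43.5 to 79.5 (median 65.4) in the hippocampus and 17.9 to 43.3 (median 32.2) in the frontal cortex. The groups touched without overlapping, since the lowest hippocampus value, in the low-depth ZT13 replicate 1, was just above the highest cortex value, in ZT21 replicate 3 (log2 fold change 1.02, SE 0.10, adj. p-value 7.15e-11). Zbtb20, a zinc finger repressor needed for the identity of hippocampal pyramidal neurons, forms a circle from exons 4 to 7 (chr16:43569681-43577748). Its level was 9.45 to 37.1 (median 21.4) in the hippocampus and 0 to 11.4 (median 6.67) in the frontal cortex. All but 2 of the hippocampus samples were above the highest cortex sample (log2 fold change 1.73, SE 0.20, adj. p-value 3.56e-09). Prox1, a homeobox factor that marks granule cells of the dentate gyrus, forms a circle from exons 2 to 4 (chr1:190146952-190162313). It was found in 17 hippocampus samples with 195 reads and in 4 frontal cortex samples with 14 reads. Levels were 0 to 17.1 (median 7.19) in the hippocampus and 0 to 4.57 (median 0) in the frontal cortex. The only hippocampus sample without it was the low-depth ZT13 replicate 1, and the other 17 were above every cortex sample (log2 fold change 3.46, SE 0.44, adj. p-value 3.73e-08).

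The ETS-family factor Elf2 forms a circle from exons 2 to 4 (chr3:51308050-51326035) that was abundant in both tissues. Its level was 49.1 to 90.2 (median 68) in the hippocampus and 23.4 to 47.1 (median 37.7) in the frontal cortex. The groups did not overlap, although the fold change was less than that of Glis3 or Prox1 (log2 fold change 0.91, SE 0.09, adj. p-value 1.69e-10). Tshz2, a zinc finger protein of the teashirt family (chr2:169883526-169886459), ranged from 9.36 to 24.5 (median 15.6) in the hippocampus and from 0 to 8.23 (median 4.58) in the frontal cortex. Its hippocampus samples were all above its cortex samples, and the log2 fold change was 1.76 (SE 0.20, adj. p-value 1.51e-09).

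The smallest p-value of all 710 circRNAs was that of Arhgap12 (chr18:6111685-6115850, exons 2 to 3), whose protein switches off small GTPases. The level was 15.1 to 36.7 (median 30.1) in the hippocampus and 3.49 to 12.6 (median 6.9) in the frontal cortex. No hippocampus sample reached down to the cortex samples, and the lowest was again ZT13 replicate 1 (log2 fold change 1.89, SE 0.14, adj. p-value 9.08e-14). No sequence is shown for circles of its chromosome. Pip5k1b, a kinase that makes the membrane lipid phosphatidylinositol 4,5-bisphosphate, forms a circle from exons 8 to 13 (chr19:24346237-24360151), with levels of 5.67 to 33.6 (median 16.6) in the hippocampus and 0 to 7.3 (median 3.43) in the frontal cortex. Only ZT13 replicate 1 of the hippocampus fell within the range of the cortex (log2 fold change 2.37, SE 0.24, adj. p-value 1.69e-10). Wdr49, which encodes a WD repeat protein, gave 1.8 to 20.6 (median 6.63) in the hippocampus and 0 to 2.61 (median 0) in the frontal cortex for its circle of exons 4 to 6 (chr3:75358347-75397101). It was found in all 18 hippocampus samples and in 4 cortex samples, and 17 of the former were above all of the latter (log2 fold change 3.93, SE 0.43, adj. p-value 1.47e-09). A circle within the predicted gene Gm49169 (chr15:95736513-95737296) also separated the tissues fully, with 3.78 to 18.5 (median 11) against 0 to 2.92 (median 0) and a log2 fold change of 3.79 (SE 0.34, adj. p-value 1.44e-11). The predicted gene Gm2164 (chr4:124556045-124586127) was at 16.2 to 43.6 (median 30.1) and 0 to 16.9 (median 10.4), with 1 hippocampus sample, ZT5 replicate 1, inside the range of the cortex (log2 fold change 1.42, SE 0.16, adj. p-value 1.47e-09).

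Nrgn encodes neurogranin, a calmodulin-binding protein of dendritic spines. Its circle (chr9:37552537-37552688, with 1 end on an exon boundary) had 130 reads in 8 hippocampus samples and none in the frontal cortex. The level was 0 to 14.2 in the hippocampus with a median of 0, so the other 10 hippocampus samples looked like the cortex samples. With 3 reads over the frontal cortex as the floor, the normalised reads pooled over the hippocampus were at least 36.7-fold higher. This bound covers counting error only and not the spread between samples. The call of edgeR (adj. p-value 0.0011) was not shared by DESeq2 (adj. p-value 0.0655). Nrgn is 1 of 53 circRNAs tested that had 0 reads in some sample where the level in the rest of its tissue would have given 10 or more, and 8 of these 53 were called higher in the hippocampus and 10 higher in the frontal cortex.

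**Figure D2:**
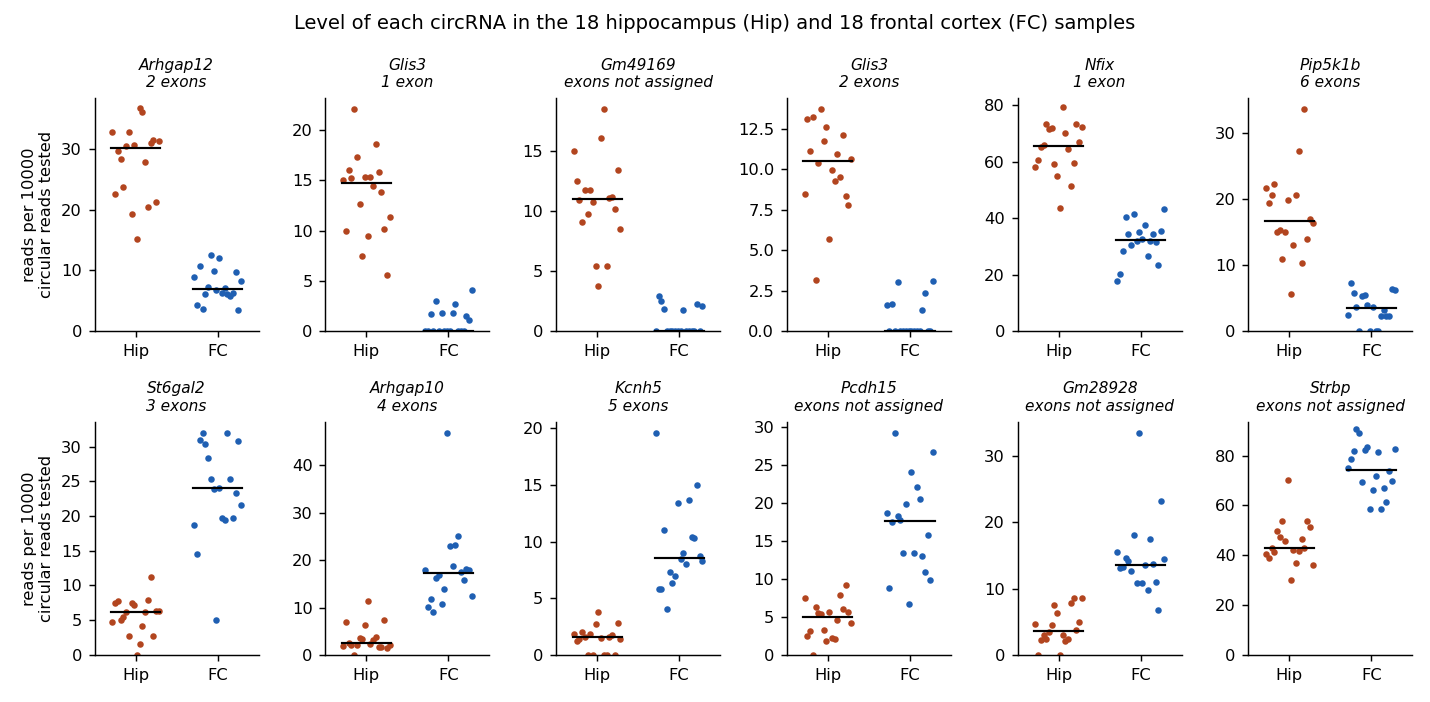
Each point is the level of a circRNA in 1 sample, in normalised circular reads per 10000 circular reads of the circRNAs tested, with the 18 hippocampus samples (Hip, red) and the 18 frontal cortex samples (FC, blue) side by side and the median as a line. The upper row shows the 6 circRNAs with the smallest p-values among those higher in the hippocampus, of which only Pip5k1b has a hippocampus sample within the range of the cortex, and the lower row the 6 with the smallest p-values among those higher in the frontal cortex.

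In the frontal cortex the smallest p-value belonged to St6gal2, which adds sialic acid to glycans and is expressed chiefly in brain. Its circle of exons 3 to 5 (chr17:55490943-55498406) was at 5.02 to 32 (median 24) in the frontal cortex and at 0 to 11.2 (median 6.23) in the hippocampus. All cortex samples but the low-depth ZT9 replicate 3 were above every hippocampus sample (log2 fold change -2.03, SE 0.17, adj. p-value 2.45e-12). A shorter circle of exons 4 to 5 of the same gene (chr17:55496292-55498406) gave 0 to 23.4 (median 12.4) in the frontal cortex and 0 to 7.2 (median 2.31) in the hippocampus. For this one, 14 cortex samples were above every hippocampus sample (log2 fold change -1.94, SE 0.29, adj. p-value 1.68e-06).

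Arhgap10 encodes a GTPase-activating protein, as Arhgap12 does, but its circles were higher in the other tissue. The circle of exons 9 to 12 (chr8:77384751-77411128) was at 9.15 to 46.9 (median 17.2) in the frontal cortex and 0 to 11.3 (median 2.43) in the hippocampus. The highest hippocampus value came from ZT13 replicate 1 and the highest cortex value from ZT9 replicate 3, the low-depth libraries, and 15 cortex samples were above every hippocampus sample (log2 fold change -2.39, SE 0.23, adj. p-value 5.79e-11). Kcnh5, a voltage-gated potassium channel of the ether-a-go-go family, forms a circle from exons 2 to 6 (chr12:75114191-75154281). It ranged from 4.06 to 19.6 (median 8.57) in the frontal cortex and from 0 to 3.78 (median 1.55) in the hippocampus, where 5 samples had no read of it. The tissues did not overlap (log2 fold change -2.75, SE 0.29, adj. p-value 7.01e-10).

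Pcdh15, a protocadherin known from the tip links of hair cells, had a circle with ends off the annotated exon boundaries (chr10:73282748-73283608) at 6.7 to 29.3 (median 17.7) in the frontal cortex and 0 to 9.27 (median 5.06) in the hippocampus. Of the 18 cortex samples, 16 were above the whole hippocampus (log2 fold change -1.88, SE 0.21, adj. p-value 2e-09). Strbp, an RNA-binding protein, was the most abundant of the leading cortex circles (chr2:37580673-37647285), with 58.5 to 90.6 (median 74.3) against 30.2 to 70.2 (median 43.1). The groups overlapped through hippocampus ZT9 replicate 3, and 11 cortex samples were above it (log2 fold change -0.73, SE 0.09, adj. p-value 2.59e-08). Atrnl1, an attractin-like membrane protein (chr19:57751630-57797503, exons 22 to 26), was at 18.4 to 36.6 (median 28.3) in the frontal cortex and 8.23 to 23.3 (median 17.3) in the hippocampus. Its ranges overlapped slightly (log2 fold change -0.80, SE 0.10, adj. p-value 6.93e-08). Tox, a high mobility group box factor (chr4:6822905-6842426, exons 2 to 3), was at 5.84 to 22.9 (median 16) and 0 to 13.5 (median 6.52), with 13 cortex samples above the hippocampus (log2 fold change -1.18, SE 0.18, adj. p-value 3.04e-06). The predicted gene Gm28928 (chr1:124633365-124639139) was at 6.77 to 33.5 (median 13.6) in the frontal cortex and 0 to 8.62 (median 3.59) in the hippocampus, and all but 1 cortex sample were above the hippocampus (log2 fold change -1.81, SE 0.22, adj. p-value 1.21e-08). Cobl, an actin nucleator of dendrites (chr11:12343744-12378359, exons 3 to 7), had one of the largest fold changes among circles with at least 100 reads. It was at 0 to 13.5 (median 8.43) in the frontal cortex and 0 to 6.3 (median 1.41) in the hippocampus, with 12 cortex samples above the hippocampus and only the low-depth ZT9 replicate 3 of the cortex at 0 (log2 fold change -2.25, SE 0.39, adj. p-value 1.82e-05).

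The junctions that the counts rest on are shown for 3 circRNAs in each direction, from those with the smallest p-values whose exons could be assigned, with Arhgap12 left aside, because the join between these bases exists in the circle and not in the linear transcript. Sequences were assembled from the GENCODE M21 transcripts of GRCm38 on the strand of the gene, 30 bases each, with the last 15 bases of the circle's last exon in lower case and the first 15 bases of its first exon, which follow the junction, in capitals. The circles higher in the hippocampus are those of exon 3 of Glis3-201 (chr19:28530873-28531986, minus strand), exons 3 to 4 of Glis3-202 (chr19:28530873-28540408, minus strand) and Nfix exon 2 (chr8:84771784-84772315, minus strand). Those higher in the frontal cortex are St6gal2 exons 3 to 5 (chr17:55490943-55498406, plus strand), Arhgap10 exons 9 to 12 (chr8:77384751-77411128, minus strand) and Kcnh5 exons 2 to 6 (chr12:75114191-75154281, minus strand). Both Glis3 circles share the lower-case bases, since they end with the same exon, numbered 3 in one transcript and 4 in the other, and differ in the exon they start with.
Glis3-201 exon 3: cccaacaagtgtacgGTCCGTTATTTTGCA
Glis3-202 exons 3 to 4: cccaacaagtgtacgGGGCTCTTGGCTTTG
Nfix exon 2: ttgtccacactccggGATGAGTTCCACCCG
St6gal2 exons 3 to 5: cttctggttttattgATTCTCATGATGCAG
Arhgap10 exons 9 to 12: cgagaccggaaggagGGCCTGCTCCATTTG
Kcnh5 exons 2 to 6: gaaaatgtggatgagAATCAAGTTTCTTAC

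Cdr1as, which binds the microRNA miR-7 at many sites, is listed as exon 6 of C230004F18Rik (chrX:61183248-61186174, plus strand). Its level was 239 to 1930 (median 1605) in the frontal cortex and 408 to 1388 (median 986) in the hippocampus. Of the cortex samples, 10 were above the whole hippocampus, while the 3 of ZT17 and the low-depth ZT9 replicate 3 were among the others. Cdr1as was higher in the frontal cortex (log2 fold change -0.49, SE 0.14, adj. p-value 0.00771). This call did not hold without scaling (-0.29, adj. p-value 0.4) or with the replicate number as a block (-0.46, adj. p-value 0.0504). As a share of all circular reads of a sample, Cdr1as took up 7.81 ± 2.18% in the frontal cortex, from 1.76% in ZT9 replicate 3 to 11.1%, and 5.58 ± 0.939% in the hippocampus, from 3.2% in ZT13 replicate 1 to 7.54% (SD, n = 18 each). The difference was -2.23 percentage points (two-sided permutation test, 100000 resamples, n = 18 per tissue, p = 0.00026), and the hippocampus share was the higher of the 2 in 3 of 18 comparisons of samples with the same time point and number. By time point, the log2 ratio of the mean levels, each with 0.5 added, was between -0.94 at ZT13 and 0.05 at ZT17.

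Of the other circles with the most reads, Tulp4 and Gigyf2 differed little between the tissues. Tulp4, a tubby-like protein (chr17:6137211-6139156), was at 86.9 to 248 (median 198) in the hippocampus and 87.1 to 178 (median 164) in the frontal cortex. Every hippocampus sample except ZT13 replicate 1 was above every cortex sample, at a log2 fold change of only 0.31 (SE 0.09, adj. p-value 0.00983). Gigyf2, a translational repressor (chr1:87364104-87380008), gave a log2 fold change of 0.20 (SE 0.07, adj. p-value 0.028), and only 3 hippocampus samples were above the cortex. The Gigyf2 call ended with the size factors of DESeq2 in edgeR (adj. p-value 0.0503), and with a filter of 50 reads (0.26, adj. p-value 0.0608), and both calls ended without scaling (0.54, adj. p-value 0.0519, for Tulp4 and 0.44, adj. p-value 0.0692, for Gigyf2). With the set of circRNAs tested held fixed, the Gigyf2 call also ended without hippocampus ZT13 replicate 2, where the log2 fold change was 0.17. The circle without an annotated gene on its strand at JH584304.1:25369-60857 was higher in the frontal cortex (log2 fold change -0.94, SE 0.32, adj. p-value 0.0215), a call that ended without hippocampus ZT21 replicate 2 (-0.79, adj. p-value 0.0521), without frontal cortex ZT5 replicate 1 (-0.81, adj. p-value 0.0612), without scaling (-0.72, adj. p-value 0.172) and with robust fitting (-0.94, adj. p-value 0.0524). Nell2 (chr15:95296159-95346887), a secreted glycoprotein of neurons, was called higher in the hippocampus (log2 fold change 2.76, SE 1.07, adj. p-value 0.0464) from reads in 8 hippocampus and 3 frontal cortex samples. Leaving out 1 sample at a time gave Nell2 2.26 without hippocampus ZT5 replicate 3 to 3.83 without frontal cortex ZT17 replicate 2, and ended the call in 22 of 36 fits (adj. p-values 0.0508 to 0.115), the one without the low-depth frontal cortex ZT9 replicate 3 among them (2.64, adj. p-value 0.0531). The Nell2 call also ended without scaling (3.22, adj. p-value 0.0553), with robust fitting (2.76, adj. p-value 0.1) and without the time point as a covariate (1.80, adj. p-value 0.114).

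Host genes were then grouped by role, and the counts of each list are to be read against the 15.5% of all circRNAs tested that were higher in the hippocampus and the 14.8% that were higher in the frontal cortex, or against 16.9% and 15.1% of the host genes where the reads of all circles of a gene were summed. Of 18 circRNAs tested from genes of the presynaptic active zone and vesicle release, none was higher in the hippocampus and 5 were higher in the frontal cortex, with a median log2 fold change of -0.36 against 0.01 over all circRNAs tested. They came from 3 scaffold proteins of the active zone, Erc2, Rims1 and Rims2. Erc2 (chr14:28040343-28317314) was at 15.1 to 37.1 (median 30) in the frontal cortex and 3.78 to 25.7 (median 18.9) in the hippocampus, with 15 cortex samples above the hippocampus (log2 fold change -0.58, SE 0.11, adj. p-value 0.000126). Rims1 (chr1:22346293-22379540) was at 49.3 to 75.9 (median 58.9) in the frontal cortex and 31 to 56.4 (median 46) in the hippocampus, with 12 cortex samples above (log2 fold change -0.45, SE 0.09, adj. p-value 0.000156). Rims2 had 2 such circles, with log2 fold changes of -1.26 (chr15:39452224-39478710, SE 0.36, adj. p-value 0.00776) and -0.40 (chr15:39566943-39616510, SE 0.13, adj. p-value 0.0138). The fifth call was a second Rims1 circle at chr1:22373344-22379540 (log2 fold change -0.38, adj. p-value 0.0175), named after its value was seen. It ended without hippocampus ZT13 replicate 2 (-0.33) or ZT17 replicate 3 (-0.33) and without frontal cortex ZT1 replicate 1 (-0.30), ZT13 replicate 2 (-0.32) or ZT17 replicate 2 (-0.32), at adj. p-values of 0.0513 to 0.0747. Without a filter on low counts and with a filter of 50 reads, this circle (-0.31 and -0.32, adj. p-values 0.275 and 0.14) and the second Rims2 circle (-0.33 and -0.35, adj. p-values 0.181 and 0.105) also lost their calls. Without scaling, all 5 calls ended, at log2 fold changes of -0.37 for Erc2, -0.23 and -0.17 for Rims1 and -1.05 and -0.17 for Rims2, and adj. p-values of 0.252, 0.409, 0.605, 0.0857 and 0.61, while the median of all circRNAs moved to 0.23. Of 15 summed host genes, 2 were higher in the hippocampus and 4 higher in the frontal cortex, with a median of -0.24. Those of the hippocampus were Unc13b (0.91), which primes vesicles, and Synj1 (1.01), which takes part in their recycling, and neither had a circle that was tested by itself. Those of the frontal cortex were Erc2, Rims1, Rims2 and the calcium sensor Syt1 (-0.58), and these 4 calls ended without scaling (adj. p-values 0.252 to 0.887). When low counts were not filtered, the summed calls of Erc2 (-0.26, adj. p-value 0.138) and Rims1 (-0.21, adj. p-value 0.0561) ended, and that of Erc2 also with a filter of 50 reads (-0.27, adj. p-value 0.0614). The summed level of all circRNAs kept from this list overlapped widely between the tissues, with 161 to 344 (median 298) in the frontal cortex and 142 to 306 (median 249) in the hippocampus.

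Genes of the postsynaptic scaffold gave 15 circRNAs tested, of which 2 were higher in the hippocampus and 3 higher in the frontal cortex, close to the shares over all circRNAs tested, with a median of -0.25. Of 13 summed host genes, 1 (Dlgap1) was higher in the hippocampus and 2 (Homer1 and Dlg1) were higher in the frontal cortex. Without the circRNAs at 0 against an expected 10 reads, the summed calls of Dlgap1 (0.35, adj. p-value 0.582) and Homer1 (-0.17, adj. p-value 0.72) ended, and without scaling those of Homer1 (-0.38, adj. p-value 0.321) and Dlg1 (-0.44, adj. p-value 0.165) did. Both calls for the hippocampus were circles of Dlgap1, which links PSD-95 to Shank proteins. The longer one (chr17:70761075-70787209) was at 0 to 52 (median 37.5) in the hippocampus and 13.3 to 37.9 (median 23.1) in the frontal cortex, and its only 0 was in the low-depth ZT13 replicate 1 (log2 fold change 0.69, SE 0.16, adj. p-value 0.00126). The shorter one (chr17:70761075-70766089) had a log2 fold change of 0.64 (SE 0.17, adj. p-value 0.00382). Homer1, which tethers metabotropic glutamate receptors, was at 0 to 42.7 (median 25.1) in the frontal cortex and 0 to 23.3 (median 17) in the hippocampus, with a 0 in each low-depth library (chr13:93341756-93356079, log2 fold change -0.66, SE 0.18, adj. p-value 0.00515). Anks1b, another scaffold (-0.34, adj. p-value 0.0318), and Dlg1 (-0.36, adj. p-value 0.0456), the latter named after its value was seen, completed the cortex calls. The Dlg1 call ended in 33 of 36 fits that each left out 1 sample, at log2 fold changes whose whole range was -0.40 without frontal cortex ZT9 replicate 3 to -0.29 without hippocampus ZT13 replicate 3 (adj. p-values of the lost calls 0.0543 to 0.137). The Anks1b call ended in 26 of 36 fits that each left out 1 sample, at log2 fold changes whose whole range was -0.36 without frontal cortex ZT21 replicate 3 to -0.27 without hippocampus ZT13 replicate 2 (adj. p-values of the lost calls 0.0506 to 0.0959). Without both low-depth libraries Anks1b stood at -0.29 (adj. p-value 0.0536) and without frontal cortex ZT9 replicate 3 alone at -0.29 (adj. p-value 0.0542), while Dlg1 stood at -0.33 (adj. p-value 0.0698) without hippocampus ZT13 replicate 1. The calls of Homer1, Anks1b and Dlg1 also ended without scaling (adj. p-values 0.243, 0.723 and 0.669).

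Receptors were sparsely represented. Of 6 circRNAs of glutamate receptor genes, 1 was higher in the frontal cortex, about the share over all circRNAs tested, and none in the hippocampus (median -0.13). It came from the metabotropic receptor Grm3 (chr5:9504725-9512524), at 0 to 9.28 (median 3.47) in the frontal cortex and 0 to 5.52 (median 1.87) in the hippocampus. The tissues overlapped, with 8 cortex samples above the hippocampus (log2 fold change -1.41, SE 0.44, adj. p-value 0.0133, and 0.0502 without scaling). Among the summed host genes, Grm3 (-1.43) was likewise higher in the frontal cortex and the kainate receptor Grik2 (1.13), without a circle tested by itself, was higher in the hippocampus, out of 6 (median 0.04). The 2 circRNAs of GABA receptor genes went opposite ways (median -0.02). Gabra2 was higher in the hippocampus (chr5:71006107-71034797, log2 fold change 0.65, SE 0.21, adj. p-value 0.0175, and 0.71 with 0.0798 when low counts were not filtered). Gabra4 was higher in the frontal cortex (chr5:71623855-71642326, log2 fold change -0.68, SE 0.27), but at an adj. p-value of 0.0498 this call ended in 31 of 36 fits that each left out 1 sample (adj. p-values 0.0508 to 0.145), where the log2 fold change ran from -0.75 without hippocampus ZT21 replicate 1 to -0.55 without frontal cortex ZT1 replicate 1. Without both low-depth libraries it stood at -0.58 (adj. p-value 0.0827), and without that of the hippocampus or the cortex alone at -0.60 and -0.65 (adj. p-values 0.0751 and 0.0632). As summed host genes, Gabra2 alone of the 2 was called (0.64).

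Synaptic adhesion and axon guidance genes gave 17 circRNAs tested, 6 higher in the hippocampus and 2 higher in the frontal cortex, with a median of 0.12. Epha6, an ephrin receptor, forms a circle from exon 3 (chr16:60424721-60425384) at 2.84 to 10.8 (median 6.67) in the hippocampus and 0 to 6.31 (median 0) in the frontal cortex. It was found in all hippocampus samples and in 8 cortex samples (log2 fold change 2.06, SE 0.40, adj. p-value 0.000107). Dscam, a homophilic adhesion molecule of the immunoglobulin family, was at 3.6 to 15.8 (median 12.5) and 1.5 to 15.4 (median 5.67), with the high cortex value from ZT9 replicate 1 (chr16:97038898-97056765, log2 fold change 0.94, SE 0.20, adj. p-value 0.000302). The teneurin Tenm3, which matches axons of the hippocampus with their targets, had 2 circles higher in the hippocampus, with log2 fold changes of 1.03 (chr8:48367311-48417245, SE 0.26, adj. p-value 0.00263) and 0.90 (chr8:48335589-48349413, SE 0.24, adj. p-value 0.00382). Ntng2 (0.68) and Nlgn1 (0.53), named with the second Tenm3 circle after their values were seen, completed the hippocampus calls. The Ntng2 call ended when low counts were not filtered (0.75, adj. p-value 0.057), and that of Nlgn1 ended then and without scaling (0.61 and 0.76, adj. p-values 0.0958 and 0.0519), and, with the filter applied again, without hippocampus ZT13 replicate 2 (0.48) or frontal cortex ZT5 replicate 2 or ZT17 replicate 1 (0.51 each, adj. p-values 0.0535 to 0.0649). On a fixed set of circRNAs tested the Nlgn1 call ended in 10 of 36 fits (0.45 to 0.51, adj. p-values 0.051 to 0.0761), namely without hippocampus ZT5 replicate 1, ZT9 replicate 2, ZT13 replicate 2, ZT17 replicate 1 or ZT21 replicate 2 or frontal cortex ZT5 replicates 2 or 3, ZT13 replicate 2, ZT17 replicate 1 or ZT21 replicate 3. In the frontal cortex, the presynaptic neurexin Nrxn3 was at 1.95 to 13.2 (median 7.05) against 0 to 6.38 (median 2.66) in the hippocampus, with 9 cortex samples above (chr12:89187022-89193207, log2 fold change -1.38, SE 0.32, adj. p-value 0.000894), and the contactin Cntn5, named after its value was seen, was called at -0.76 (adj. p-value 0.0487). The Cntn5 call ended in 31 of 36 fits that each left out 1 sample (adj. p-values 0.0509 to 0.115), at -0.86 without hippocampus ZT13 replicate 3 to -0.63 without frontal cortex ZT1 replicate 2, without both low-depth libraries (-0.71, adj. p-value 0.059) and without hippocampus ZT13 replicate 1 alone (-0.68, adj. p-value 0.0678). Of 19 summed host genes, 8 were higher in the hippocampus and 2 (Cntn5 and Nrxn3) higher in the frontal cortex, with a median of 0.34, and both cortex calls ended without scaling (adj. p-values 0.116 and 0.149). Among the 8 was the netrin receptor Dcc (0.97, adj. p-value 0.0474), named after its value was seen, whose call ended without scaling (1.14, adj. p-value 0.0663), with 4 other settings (0.89 to 0.98, adj. p-values 0.0517 to 0.0614) and in 26 of 36 fits that each left out 1 sample (adj. p-values 0.0505 to 0.0903), at 0.85 without frontal cortex ZT1 replicate 3 to 1.17 without frontal cortex ZT5 replicate 2.

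Ion channel genes gave 22 circRNAs tested, 5 higher in the hippocampus and 3 higher in the frontal cortex, with a median of -0.11. Kcnj6, a potassium channel opened by G proteins, was at 29.3 to 79.3 (median 37.9) in the hippocampus and 16.3 to 45.2 (median 26.1) in the frontal cortex, with the highest value of each tissue in its low-depth library (chr16:94832299-94833219, log2 fold change 0.58, SE 0.12, adj. p-value 0.000198). Cacna1c, the pore of an L-type calcium channel, was at 0 to 24.2 (median 15.4) and 0 to 14.3 (median 6.98), with 10 hippocampus samples above the cortex (chr6:119052601-119057515, log2 fold change 1.18, SE 0.24, adj. p-value 0.000275). Cacna1e (1.67), Kcnn2 (0.90) and the ryanodine receptor Ryr2 (0.41) were the other hippocampus calls, named after their values were seen. That of Ryr2 ended when low counts were not filtered (0.47, adj. p-value 0.137) and in 8 of 36 fits that each left out 1 sample, at 0.37 to 0.41 (adj. p-values 0.0503 to 0.0634), these being hippocampus ZT5 replicate 2, ZT13 replicate 2, ZT17 replicate 1 and ZT21 replicate 3 and frontal cortex ZT1 replicate 3, ZT5 replicate 3 and ZT21 replicates 1 and 2. Beside Kcnh5, the related channel Kcnh1 was higher in the frontal cortex, at 3.04 to 13.9 (median 8.91) against 0 to 8.33 (median 3.96), with 10 cortex samples above the hippocampus (chr1:192221333-192242037, log2 fold change -1.03, SE 0.22, adj. p-value 0.000302), and so was Kcnt2 (-0.72, adj. p-value 0.000894, and 0.183 without scaling), named after its value was seen. The split of the summed host genes was the other way round, with 4 of 23 (Cacna1c, Cacna1e, Kcnj6 and Ryr2) higher in the hippocampus and 6 higher in the frontal cortex (median -0.09), but without scaling 4 of these 6 and 1 of these 4, Ryr2, were no longer called. The summed Ryr2 call (0.25, adj. p-value 0.0364) also ended with the size factors of DESeq2 in edgeR (0.23, adj. p-value 0.0541), when low counts were not filtered (0.28, adj. p-value 0.12), with a filter of 50 reads (0.27, adj. p-value 0.0641) and in 16 of 36 fits that each left out 1 sample (adj. p-values 0.0505 to 0.085), at 0.21 without hippocampus ZT21 replicate 1 to 0.28 without hippocampus ZT1 replicate 2. That of Cacna1a (-0.33), 1 of the 4 lost in the frontal cortex, ended with these filter settings too (-0.30 and -0.31, adj. p-values 0.261 and 0.105). Among 5 circRNAs of cyclic AMP signalling (median 0.06), adenylyl cyclases differed in both directions. Adcy1 was higher in the hippocampus, at 5.17 to 18.2 (median 9.01) against 0 to 16.7 (median 4.68), where the top cortex value came from the low-depth ZT9 replicate 3 (chr11:7078888-7109112, log2 fold change 1.12, SE 0.27, adj. p-value 0.00167). Adcy2 was higher in the frontal cortex (chr13:68887959-68982544, log2 fold change -1.16, SE 0.36, adj. p-value 0.0125, and 0.0907 without scaling).

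Regulators of splicing and RNA editing gave 10 circRNAs tested and 1 call, in the frontal cortex, with a median of -0.07. It was Nova2, a neuronal splicing factor (chr7:18942216-18950619, log2 fold change -0.60, SE 0.23, adj. p-value 0.0466), and the call ended in 30 of 36 fits that each left out 1 sample (adj. p-values 0.0539 to 0.143), at -0.65 without hippocampus ZT17 replicate 3 to -0.46 without frontal cortex ZT9 replicate 2, with -0.56 (adj. p-value 0.0646) without the low-depth hippocampus ZT13 replicate 1. Of 12 summed host genes, the splicing factor Khdrbs3 (0.55, adj. p-value 0.00817) was higher in the hippocampus and Nova2 (-0.78, adj. p-value 0.00547, and -0.63 with 0.137 without scaling) higher in the frontal cortex. Of 27 circadian clock genes, 11 had no circular reads and 1 circle was tested, that of Npas2, a partner of BMAL1 that can stand in for CLOCK in the forebrain (chr1:39263319-39300733, exons 2 to 5). It was at 0 to 20.9 (median 8.76) in the frontal cortex and 0 to 6.38 (median 4.03) in the hippocampus, with 15 cortex samples above the hippocampus and the only cortex sample at 0 being the low-depth ZT9 replicate 3 (log2 fold change -1.42, SE 0.25, adj. p-value 3.65e-05). Genes well known as hosts of conserved circRNAs gave 41 circRNAs tested, 10 higher in each tissue, with a median of 0.05, and as summed host genes 7 of 26 were higher in the hippocampus and 8 higher in the frontal cortex. Without scaling, none of these 8 host calls was left (adj. p-values 0.314 to 0.944, with Ttc3 turning from -0.20 to 0.02), and of the 7 that of Gigyf2 ended (0.44, adj. p-value 0.0663). They include Elf2, Zbtb20, Rims1, Homer1 and Cdr1as above. Klhl2, an adaptor of a ubiquitin ligase, was at 14.1 to 35 (median 24.4) in the hippocampus and 8.76 to 20.4 (median 14.3) in the frontal cortex, with 13 hippocampus samples above the cortex (chr8:64811680-64834568, log2 fold change 0.73, SE 0.11, adj. p-value 3.92e-06). Cdyl, a chromodomain corepressor, was at 13.4 to 34.9 (median 26.1) in the frontal cortex and 8.34 to 24.6 (median 15.4) in the hippocampus, with 12 cortex samples above (chr13:35815909-35816575, log2 fold change -0.66, SE 0.12, adj. p-value 7.08e-05, and 0.117 without scaling).

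**Figure D3:**
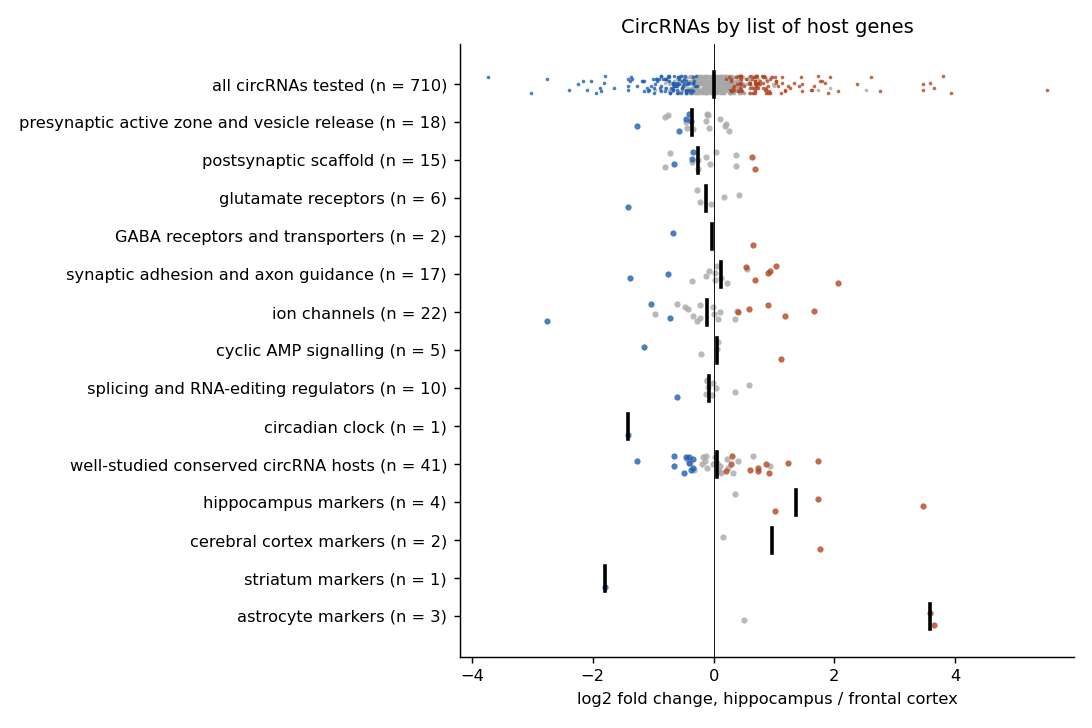
Each point is a circRNA tested, placed by the log2 fold change of hippocampus over frontal cortex, for each list of host genes with any circRNA tested and for all 710 circRNAs at the top, with medians as black bars. Red points are higher in the hippocampus, blue points higher in the frontal cortex and grey points not called, and the presynaptic list has its median at -0.36 with 5 blue and no red points.

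Markers of regions and cell types were read in the same way, through the circles of the marker genes. These lists were chosen with earlier results of these data known, so they are not an independent check of the tissues. A marker without circular reads is not thereby unexpressed, since linear RNA does not count here. Of 29 hippocampus markers, 13 had no circular reads, Lhx2, Lhx9 and Emx2 among them. Of 4 circRNAs tested, with a median of 1.37, that of Trpc6 (0.35) was not called and 3 (Nfix, Zbtb20 and Prox1) were higher in the hippocampus. As summed host genes these 3 and the mineralocorticoid receptor Nr3c2 (3.29), 4 of 5, were higher in the hippocampus. The summed level of the markers was 77.5 to 110 (median 94.7) in the hippocampus and 28.5 to 54.7 (median 47.2) in the frontal cortex, without overlap, and Nfix was the most abundant with 2338 reads. Of 29 cerebral cortex markers, 8 had no circular reads, with Rorb and Fezf2 among them, and 2 circRNAs were tested, neither of them higher in the frontal cortex (median 0.96). Tshz2 was the most abundant of these and was higher in the hippocampus. Of 3 summed host genes, 1 was higher in each tissue (median 0.06), with Tshz2 again the one in the hippocampus. The summed levels of the cortex markers overlapped almost fully, at 13 to 41.4 (median 26.7) in the frontal cortex and 14.3 to 38.3 (median 24.9) in the hippocampus. Of 19 striatum markers, 12 had no circular reads, Drd1, Drd2 and Adora2a among them. Meis2, a homeobox factor of the TALE class and the only striatum marker tested, was higher in the frontal cortex at 0 to 10.3 (median 6.15) against 0 to 9.11 (median 0.936) in the hippocampus (chr2:115921672-116049198, log2 fold change -1.80, SE 0.44, adj. p-value 0.00178). On the scale of the sums, the striatum level was 0 to 8.96 (median 6.48) in the frontal cortex and 0 to 5.75 (median 1.46) in the hippocampus.

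Astrocyte markers gave 3 circRNAs tested, 2 of them higher in the hippocampus (median 3.59), and both were the circles of Glis3. The third, of Bmpr1b, had a log2 fold change of 0.50 and was not called. Of the 16 astrocyte markers, 5 had no circular reads at all, namely Aqp4, Gfap, Gja1, Acsbg1 and Fgfr3. The summed astrocyte level was 15.1 to 32.3 (median 24.1) in the hippocampus and 2.89 to 15 (median 6.92) in the frontal cortex, with Glis3 the most abundant at 656 and 44 reads. The part of astrocytes in the Glis3 difference was not tested. No circRNA was tested from the markers of thalamus, choroid plexus, oligodendrocytes, oligodendrocyte precursors, microglia, endothelial and mural cells or GABAergic interneurons. Circular reads were absent for 13 of 14 microglia markers, 7 of 13 endothelial and mural markers, 7 of 9 choroid plexus markers, 5 of 10 thalamus markers, 9 of 17 oligodendrocyte markers, 3 of 6 precursor markers and 9 of 17 interneuron markers. The most abundant genes of these lists were Zfp536 of the interneurons (394 reads over all samples), Ptpn3 of the thalamus (114), Bcas1 of the oligodendrocytes (85), Tnr of the precursors (49), Flt1 of the endothelium (10), Slc4a5 of the choroid plexus (4) and Inpp5d of microglia (2). Median summed levels, over the circRNAs kept, in hippocampus and frontal cortex were 9.57 and 7.02 for interneurons, 2.91 and 1.22 for oligodendrocytes, and 1.11 and 0 for the thalamus, and they were 0 in both tissues for the other 4 lists.

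When the reads of all circles of a host gene were summed, 720 genes could be tested, of which 122 (16.9%) were higher in the hippocampus and 109 (15.1%) higher in the frontal cortex. Of the 231 genes called, 121 had 1 circle among the circRNAs tested and 49 had none, so that only the sum of their weak circles could be tested. The smallest p-value was that of Arhgap10, whose 19 circles summed, per 10000 circular reads of the host genes tested, to 37.2 to 68.8 (median 46.4) in the frontal cortex and 4.01 to 16.8 (median 9.3) in the hippocampus. The tissues did not overlap, the log2 fold change was -2.34 (SE 0.13, adj. p-value 2.51e-19), and all 3 of its circles tested were higher in the frontal cortex. Glis3 followed with 10.3 to 25.9 (median 21) in the hippocampus and 0 to 6.36 (median 1.28) in the frontal cortex (log2 fold change 3.60, SE 0.23, adj. p-value 2.78e-17). Arhgap12 (1.87) and Gm2164 (1.58) were the next genes higher in the hippocampus that are named here. In the frontal cortex the next genes were Kcnh5 (-2.79), St6gal2, whose summed level had a median of 32.7 against 8.41, Pcdh15 (-1.73) and Gm28928 (-1.84). Of the 172 hosts of called circRNAs, 155 were also called as genes.

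Called circles of the same host mostly went the same way. Among all circles tested, called or not, those of Rere (-0.39 to 0.97) and Atrnl1 (-0.80 to 0.17) held both signs. Those of Slc8a1 (0.29 to 1.23) and Mlip (-2.10 to -0.59) held a single sign. Of 30 hosts with 2 or more called circles, 29 had all of them in 1 direction. The exception was Tmeff1, a transmembrane protein with follistatin-like domains, named after its values were seen. Its circle of exons 6 to 8 was higher in the hippocampus (chr4:48636840-48650418, log2 fold change 0.45, SE 0.15, adj. p-value 0.0201) and that of exons 2 to 5 in the frontal cortex (chr4:48604581-48617331, log2 fold change -0.28, SE 0.11, adj. p-value 0.0466). The first call ended when low counts were not filtered (0.51, adj. p-value 0.0894). The second ended in 34 of 36 fits that each left out 1 sample (adj. p-values 0.0511 to 0.136), at -0.31 without hippocampus ZT5 replicate 2 to -0.22 without hippocampus ZT13 replicate 1 (adj. p-value 0.123), with -0.26 (adj. p-value 0.0736) without frontal cortex ZT9 replicate 3 and -0.21 (adj. p-value 0.132) without both. Whether the tissues use the circles of a host in different proportions was tested for 314 circles of 118 hosts with 2 or more circles tested. Fold changes from this within-host test are on the natural-log scale. A single circle (0.318%) passed, and 24 had an unadjusted p-value below 0.05. When each sample was left out in turn this count was between 0 and 9, the highest without frontal cortex ZT9 replicate 3.

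The circle that passed was from Dtnb, the beta-dystrobrevin of neurons (chr12:3617606-3686862, exons 5 to 9). It was at 20.9 to 44.6 (median 30) in the frontal cortex and 0 to 20.8 (median 17.4) in the hippocampus. Its tissues did not overlap, although the lowest cortex sample, ZT21 replicate 2, was level with the highest hippocampus samples (log2 fold change -0.87, SE 0.14, adj. p-value 4.53e-06). The shorter circle that starts at the same exon and ends with exon 8 (chr12:3617606-3648389) was at 46.9 to 142 (median 99.9) and 52.9 to 103 (median 88.6) and was not called (log2 fold change -0.22, SE 0.10, adj. p-value 0.0927). It was called by DESeq2 (adj. p-value 0.00994), and it was also called when frontal cortex ZT9 replicate 3 was left out (-0.26, adj. p-value 0.0149) or both low-depth libraries were (-0.20, adj. p-value 0.0269). Relative to the other circles of Dtnb, the natural-log fold change of the longer circle was -0.36 (adj. p-value 0.0433). This call ended in 8 of 36 fits that each left out 1 sample, at -0.35 without hippocampus ZT1 replicate 3, -0.33 and -0.36 without ZT5 replicates 1 and 2, -0.33 without ZT9 replicate 1, -0.36 without ZT17 replicate 3 and -0.37 without ZT21 replicate 3, and at -0.36 and -0.35 without frontal cortex ZT1 replicates 1 and 2 (adj. p-values 0.0557 to 0.0961). It also ended without scaling (-0.35, adj. p-value 0.891), when low counts were not filtered (-0.37, adj. p-value 0.512), with a filter of 50 reads (-0.38, adj. p-value 0.187), without both low-depth libraries (-0.33, adj. p-value 0.0505) and without these and the deepest library (-0.31, adj. p-value 0.077). With the set of circRNAs tested held fixed, the call ended in 9 of 36 fits (adj. p-values 0.0504 to 0.1), at -0.33 without hippocampus ZT9 replicate 1, -0.35 without ZT1 replicate 3, -0.37 without ZT21 replicate 3 and -0.36 without each of ZT5 replicate 2, the low-depth ZT13 replicate 1 (adj. p-value 0.054) and frontal cortex ZT5 replicate 1, ZT13 replicates 2 and 3 and ZT21 replicate 3.

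The next 5 circles in this test just missed the threshold, each with an adj. p-value of 0.055, and came from Slc8a1, Nol4, Stk39, Mlip and Tmeff1. The last is the Tmeff1 circle of exons 6 to 8 (0.35 relative to the other circles of Tmeff1, on the natural-log scale). It was called at 0.33 (adj. p-value 0.0485) when frontal cortex ZT9 replicate 3 was left out, and under 4 other settings (0.35 to 0.36, adj. p-values 0.0474 to 0.0496). The sodium-calcium exchanger Slc8a1 has a known circle made of exon 2 alone (chr17:81647809-81649638), at 64.2 to 135 (median 113) in the hippocampus and 73 to 179 (median 86.4) in the frontal cortex, where the top value came from the low-depth ZT9 replicate 3 (log2 fold change 0.29, SE 0.10, adj. p-value 0.0259). With the set of circRNAs tested held fixed, that call ended without hippocampus ZT13 replicate 3, at 0.25. The Slc8a1 circle with the widest span in the genome (chr17:81388810-81445593) was at 3.88 to 17.7 (median 9.3) against 0 to 7.89 (median 3.69). Its log2 fold change was 1.23 (SE 0.24, adj. p-value 0.000126), and relative to the other circles of Slc8a1 it was at 0.56 on the natural-log scale. Stk39, a kinase that acts on cation-chloride cotransporters, had 7 circles tested, of which only that of exons 2 to 16 (chr2:68263235-68410141) was higher in the frontal cortex, at 4.12 to 15.1 (median 10.1) against 0 to 12.1 (median 3.93). Its log2 fold change was -1.10 (SE 0.24, adj. p-value 0.000525), and relative to the rest it was at -0.54 on the natural-log scale. The other 6 circles, at log2 fold changes of -0.47 to -0.11, were not called. With the set of circRNAs tested held fixed, leaving out both low-depth libraries brought calls of the Stk39 circles at chr2:68307041-68410141 (-0.53, adj. p-value 0.0411, and -0.51 without frontal cortex ZT9 replicate 3 alone) and chr2:68390914-68410141 (-0.26, adj. p-value 0.0458). Mlip, which binds lamin A, had 5 circles tested, 4 of them higher in the frontal cortex. Without scaling, the calls at chr9:77164765-77190737 (-0.53, adj. p-value 0.0673) and chr9:77164765-77217048 (-0.39, adj. p-value 0.407) ended. The one with the largest difference (chr9:77164765-77231029) was at 2.37 to 12.9 (median 6.09) against 0 to 3.75 (median 1.05), with 15 cortex samples above the hippocampus (log2 fold change -2.10, SE 0.39, adj. p-value 7.32e-05). Relative to the rest it was at -0.86 on the natural-log scale. The Mlip circle at chr9:77164765-77217048 was called at -0.60 (adj. p-value 0.0456), and this ended in 29 of 36 fits that each left out 1 sample (adj. p-values 0.0507 to 0.108), at -0.67 without hippocampus ZT5 replicate 2 to -0.51 without hippocampus ZT9 replicate 3, with -0.53 (adj. p-value 0.0699) without the low-depth hippocampus ZT13 replicate 1. Nol4, a nucleolar protein, had circles at log2 fold changes of -2.16 (chr18:22912582-22921957, SE 0.45, adj. p-value 0.000302, and -0.93 relative to the rest on the natural-log scale) and -0.54 (chr18:22912582-22952310, SE 0.16, adj. p-value 0.00808), both higher in the frontal cortex. The second lost its call without scaling (-0.33, adj. p-value 0.28) and when low counts were not filtered (-0.47, adj. p-value 0.168). Without frontal cortex ZT9 replicate 3 the within-host test called the circle described above of each of Slc8a1 (0.53), Stk39 (-0.49), Mlip (-0.84) and Nol4 (-0.97), all at an adj. p-value of 0.0485. Without frontal cortex ZT17 replicate 3 it also called these 4, at 0.63, -0.56, -0.91 and -0.99 (adj. p-values 0.0346, 0.0475, 0.0469 and 0.0469). With the filter applied again, the other single samples whose removal brought a call of these 4 were hippocampus ZT5 replicate 1 for Slc8a1 and Stk39 (0.59 and -0.62), ZT1 replicate 1 for Nol4 (-1.05), ZT17 replicate 2 and ZT21 replicate 2 for Stk39 (-0.62 each), and for Slc8a1 hippocampus ZT13 replicate 3 (0.58) and ZT17 replicate 1 (0.60) and frontal cortex ZT5 replicate 2 (0.59), ZT9 replicates 1 and 2 (0.59 and 0.58) and ZT21 replicate 1 (0.61). With the set of circRNAs tested held fixed, leaving out 1 sample brought a call in 13 of 36 fits for Slc8a1, 6 for Stk39, 8 for Mlip, 8 for Nol4 and 4 for Tmeff1 (adj. p-values 0.0307 to 0.0491).

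**Figure D4:**
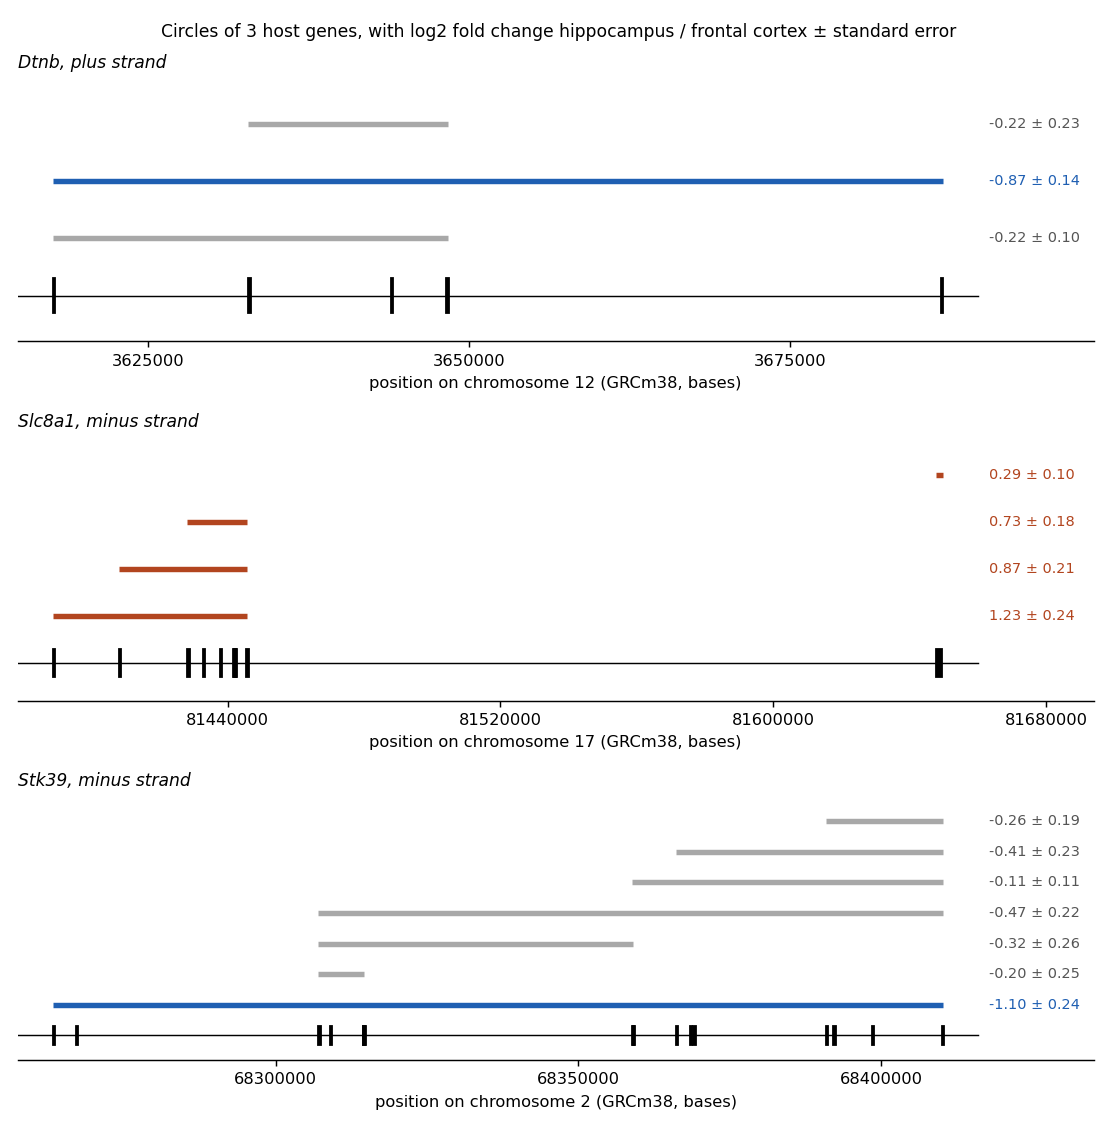
Maps of the circles tested of Dtnb, Slc8a1 and Stk39 to scale on GRCm38, with exons as black ticks on the gene line, each circle as a bar from its first to its last base, and its log2 fold change of hippocampus over frontal cortex ± standard error at the right. Red bars are higher in the hippocampus, blue bars higher in the frontal cortex and grey bars not called, so that all 4 circles of Slc8a1 are red while 1 of 3 circles of Dtnb and 1 of 7 of Stk39 are blue.

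Circles of the 2 groups were built alike in most respects. The ends lay on annotated exon boundaries for 89.1% of the circRNAs higher in the hippocampus, 90.5% of those higher in the frontal cortex and 90.7% of all tested. The median number of exons was 3, 4 and 4, and the median spliced length 576, 516 and 557 nt, with the exons inside a circle taken from the annotated transcript and not observed. Where exons could be assigned, circles of 1 exon, such as those of Glis3, Nfix and Epha6, made up 14.6% of the hippocampus group (14 of 96), 7.45% of the cortex group (7 of 94) and 9.35% of all tested (59 of 631). In the genome, the circles spanned a median of 9596 bases in the hippocampus group and 19522 in the cortex group, against 13616 for all tested. These are descriptions of the lists without a test.

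The difference between the tissues had the same sign at all 6 time points for 183 of the 710 circRNAs (25.8%). Among the called ones this held for 80 of 110 (72.7%) in the hippocampus group, Glis3, Prox1, Nfix and Arhgap12 included, and for 74 of 105 (70.5%) in the frontal cortex group, among them St6gal2, Arhgap10 and Kcnh5. Of the circRNAs not called it held for 29 of 495 (5.86%), but the calls rest on the same samples. For Kcnh5 the log2 ratio of the mean levels, each with 0.5 added, was between -2.90 at ZT17 and -1.98 at ZT13, and for Prox1 it was between 1.62 at ZT5 and 4.33 at ZT17. No circRNA (0 of 710, 0%) passed the edgeR test for a tissue difference that depends on the time point, with 25 circRNAs at an unadjusted p-value below 0.05, 0.326 the smallest adj. p-value, and a count of 0 also in DESeq2. This edgeR test had 18 samples per tissue but only 3 per tissue at each time point. Its smallest unadjusted p-values belonged to circles of Ptms (0.000459), Gm26917 (0.00126) and the cation channel Trpc6 (0.00469). The tissue difference of Ptms was called without the low-depth frontal cortex ZT9 replicate 3, both with the filter applied again (adj. p-value 0.0307) and with the set of circRNAs tested held fixed (1.51, adj. p-value 0.0305), by DESeq2 (2.96, adj. p-value 0.0138) and when low counts were not filtered (1.25, adj. p-value 2.49e-05), against 1.00 (adj. p-value 0.2) in edgeR with all samples. The tissue difference of this Gm26917 circle (chr17:39844698-39844867) was not called (log2 fold change 0.59, adj. p-value 0.709). When low counts were not filtered it was called (0.58, adj. p-value 0.00966). Trpc6 was at 13.9 to 47.2 (median 29) in the hippocampus and 5.32 to 49.6 (median 24.3) in the frontal cortex (chr9:8634047-8658377). Its tissue difference was not called (log2 fold change 0.35, adj. p-value 0.0775). It was called with total circular reads as library size, without scaling, by DESeq2 and without the circRNAs at 0 against an expected 10 reads (0.36 to 0.59, adj. p-values 0.0283 to 0.0498), and also without hippocampus ZT21 replicate 1, frontal cortex ZT1 replicate 2 or frontal cortex ZT21 replicate 2 (adj. p-values 0.0232 to 0.0372). For the interaction, a single call appeared without hippocampus ZT21 replicate 2, and 1 without frontal cortex ZT1 replicate 3 when the set of circRNAs tested was held fixed.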

How the data were processed

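Total RNA, depleted of ribosomal RNA, was sequenced from 18 hippocampus and 18 frontal cortex samples. The counts deposited by the authors give, per circle and sample, the reads across the back-splice junction, not normalised. Per the submitters' processing notes reads were mapped with BWA to GRCm38, and per the paper's methods circles were found with CIRI2. The smallest count above 0 is 2. The 1 column that could not be matched to a sample was not used.

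Joined counts were fitted in edgeR (version 4.0.16, R 4.3.3) with TMM, its default filter over the 12 groups of tissue and time point, and the quasi-likelihood F test of tissue with time point as covariate, with Benjamini-Hochberg adjustment over all circRNAs tested and a threshold of 0.05. Every adjusted p-value is from edgeR unless another tool is named. Interaction terms, summed reads per host gene, and the use of circles within a host (diffSpliceDGE) were fitted on the same 36 samples. Single measures were compared by two-sided permutation tests with 100000 resamples. Floors of 3 reads cover counting error only, and at 6754 to 73252 reads per sample weak circles are often missed. Host genes, exons and junction sequences come from GENCODE M21. Python 3.11.15 was used with matplotlib 3.10.9, pandas 2.3.3, scipy 1.17.1 and numpy 2.4.6.

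CircRNAs named are Cdr1as and the 5 with the most reads in each tissue, the 10 with the smallest p-value per direction, the 5 with the largest called fold change per direction at 100 or more reads, up to 4 calls per gene list, the 5 host genes with the smallest p-value per direction (1 of them is not reported here), the 5 circles with the smallest p-value within their host with the other circles tested of those hosts, and the 3 with the smallest interaction p-value. Further called circles and summed host genes of the lists, and Tmeff1, were named after their values were seen. The 10 lists of pathway genes and 11 lists of markers, like the members, were chosen with earlier results of these data known, and 6 of their symbols, older or newer names of listed genes among them, are not in GENCODE M21 and count as without reads. Alternatives were total reads as library size, size factors as in DESeq2, no scaling, no filter or other filters on low counts, circRNAs found in all 3 replicates, robust fitting, no covariate, a block for the replicate number, DESeq2 1.42.0 itself, and leaving out each sample. Chosen after seeing the data were leaving out both low-depth libraries, these and the deepest library (hippocampus ZT1 replicate 3), or circRNAs at 0 in some sample against an expected 10 reads, and leaving out samples with the set of circRNAs tested held fixed.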

Additional observations from a re-analysis of the deposited data

How the results depend on the processing

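No circRNA called higher in one tissue was called higher in the other under any alternative. Outside the fits that each left out 1 sample, 102 to 157 circRNAs were higher in the hippocampus and 85 to 120 in the frontal cortex, except in 3 settings. Without scaling the frontal cortex had 28 circRNAs and 30 host genes, and the cause was not tested. Without a filter on low counts 234 of 6656 circRNAs were higher in the hippocampus, 81 of them among the 110, and 147 in the frontal cortex, 51 of them among the 105. A filter of 50 reads gave 157 and 106, with 102 of the 110 and 64 of the 105. With a filter over the 2 tissues, which tested 303 circRNAs, 68 and 59 were called. Leaving out 1 sample gave 109 to 133 and 92 to 121 circRNAs and 111 to 132 and 108 to 126 host genes, and 101 to 117 and 91 to 114 circRNAs with the set of circRNAs tested held fixed, a comparison added after seeing the data because 2 samples in a group loosen the filter. The count of circles used differently within their host, 1, was 7 with total reads as library size, 0 without scaling, 0 without a filter, 3 with the filter over the 2 tissues, 0 with a filter of 50 reads, 6 with circRNAs found in all 3 replicates, 6 without the circRNAs at 0 against an expected 10 reads, 0 without both low-depth libraries on the fixed set, and 0 to 9 when 1 sample was left out, or 0 to 7 on the fixed set. CircRNAs with a difference that depends on the time point numbered 13 without a filter, 5 with a filter of 50 reads and 0 to 1 when 1 sample was left out. The causes were not tested. Of the 65 called circles that the naming rule takes, 19 lost their call without scaling, 7 without a filter, 6 with a filter of 50 reads and at most 4 under each other alternative outside the fits that left out 1 sample, and none turned its direction. Of 12 more that were named after their values were seen, 8 lost their call without a filter, 6 without scaling, 4 with a filter of 50 reads and at most 3 under each other alternative outside those fits. Those without a call in the absence of a filter were Rims2 chr15:39566943-39616510, Rims1 chr1:22373344-22379540, Anks1b, Gabra2, Gabra4, Nova2, Mlip chr9:77164765-77217048, Nol4 chr18:22912582-22952310, Dlg1, Ntng2, Nlgn1, Cntn5, Ryr2 and both circles of Tmeff1. With a filter of 50 reads they were Gigyf2, the same Rims1, Rims2 and Mlip circles, Anks1b, Gabra4, Nova2, Dlg1, Cntn5 and Tmeff1 chr4:48604581-48617331, and with total reads as library size Anks1b, Gabra4, Nova2, Dlg1, Cntn5 and the same Mlip and Tmeff1 circles. Summed host genes without a call in the absence of a filter were Erc2, Rims1, Ryr2, Cacna1a, Arid1a and Ttc3, with a filter of 50 reads Erc2, Ryr2, Cacna1a, Arid1a, Ttc3 and Dcc, and with circRNAs found in all 3 replicates Dcc and Mllt10. The summed circles of Ttc3, called at -0.20, stood at 0.02 without scaling and lost their call in 16 of 36 fits that left out 1 sample. Among circles, signs turned only for values that were not called. Without scaling these were Stk39 chr2:68307041-68314603 (0.03) and chr2:68358814-68410141 (0.11) and Dtnb chr12:3632810-3648389 (0.02). Gm26917 ran from -0.16 without hippocampus ZT5 replicate 2 to 1.41 without frontal cortex ZT17 replicate 3. Relative to its host, on the natural-log scale, Stk39 chr2:68307041-68359034, at -0.00, became 0.00 with a filter of 50 reads, 0.01 with the replicate block, 0.03 without the low-depth libraries (0.03 on the fixed set), 0.04 without these and the deepest, 0.02 without the circRNAs at 0 against an expected 10 reads, and -0.05 to 0.07 when 1 sample was left out, while Mlip chr9:77164765-77190737 went from 0.09 to -0.04 with the filter over the 2 tissues. Samples with the same number did not deviate together (18 pairs, correlations -0.17 to 0.15, mean -0.02, 1 above 0.1, and 4 of 18 best with their own number), so the numbers were not taken as pairs, which does not show whether animals were shared. With the replicate number as a block, 102 and 85 circRNAs and 114 and 96 host genes were called, 101 and 85 of the circRNAs being shared with the fit without it, with 1 circle within its host and 0 interactions, and the calls of Cdr1as (-0.46, adj. p-value 0.0504), Anks1b (-0.34, 0.0502), Gabra4 (-0.69, 0.073), Nova2 (-0.57, 0.096), Dlg1 (-0.35, 0.0957) and Ryr2 (0.40, 0.0682) and of the summed circles of Arid1a (-0.38, 0.0621) and Ttc3 (-0.19, 0.089) were not made. Samples of 6754 and 8107 reads limit what can be said of circles with few reads.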
